A study of Mus musculus with 24 samples.

Results

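The 38 genes described here encode the machinery that duplicates DNA and the enzymes that supply its nucleotides. They were taken by name from the scanner files of a study that holds 37008 distinct gene names, and all 38 were found, on 71 probes. The study measured RNA of liver and bone marrow of male mice with the genotype Erfe-/-, on 1 single-colour array per sample. Erfe encodes erythroferrone, a hormone that erythroid precursors release and that lowers hepcidin in the liver. The 0 h mice are labelled as controls, and the others were bled by retro-orbital puncture and taken at 24 h or 48 h, with 4 mice at each time and 24 arrays in all. Every group, controls included, lacks Erfe, and no group with intact Erfe was analysed here. The age of the mice, the blood volume taken and the nature of the Erfe allele are not given in the sources used here. Nor do they say whether liver and marrow with the same number came from the same animal. An Erfe probe was well above background on 1 of 12 marrow arrays and on 0 of 12 liver arrays, and the other on 0 arrays of either tissue.

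A level here is the log2 of a probe's background-subtracted intensity minus the 75th percentile of its array. Levels of different genes are not set against each other, because probes differ in brightness. A change is the difference of the means of 2 groups of 4 arrays. Limma tested it across all genes of a tissue, and a gene counts as called at an adjusted p (Benjamini-Hochberg) under 0.05. A gene was kept where the scanner software marked a probe of it as well above background throughout the 4 arrays of some group. All 38 genes were kept in marrow and 35 in liver, where Orc1, Cdc45 and Ccne2 were too dim. The tissue labels fitted the markers by level, though being kept did not by itself separate the tissues. All 22 hepatocyte markers were kept in liver and 8 in marrow, where their median level was at most 8.96% of that in liver. All 15 erythroblast markers were kept in marrow and 8 in liver.

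DNA replication begins in G1, when the origin recognition complex, Cdc6 and Cdt1 load the ring-shaped Mcm2 to Mcm7 helicase onto origins. At the onset of S phase the kinases Cdk2 with cyclin E, and Cdc7, switch this helicase on by joining it to Cdc45 and the GINS complex, with the help of Mcm10. Primase and polymerases then copy the strands, the clamp Pcna keeps the polymerases on the DNA, Fen1 and Lig1 join Okazaki fragments, and ribonucleotide reductase, thymidylate synthase and thymidine kinase make deoxynucleotides. Transcription factors of the E2F family drive many of these genes late in G1. Adult marrow holds many dividing erythroid and myeloid precursors, while most hepatocytes of an adult liver are outside the cell cycle. In bulk RNA, a change in the number of cells of a type cannot be told apart from a change in RNA per cell.

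The promoters of the genes that carry the marrow result are shown first, since E2F sites are a known feature of this set. RefSeq windows (GRCm38.p6), from 250 bases before to 50 after a start, were given for 30 of the 38 genes. The E2F words TTTCCCGC, TTTCGCGC, TTTGCCGC and TTTGGCGC were searched on both strands. At least 1 was found in 12 of the 30 genes (40%), against 704 of 27025 genes in the whole table (2.6%), or 2.26% of its windows. These 12 were Orc1, Cdc6, Cdt1, Mcm3, Mcm5, Mcm6, Mcm7, Gins3, Rfc3, Pola1, Pold1 and Lig1. The CCAAT box, searched as CCAAT on both strands, was in 17 of 30 genes (56.7%), against 41.1% of all genes. A match is a run of letters and not a measured binding site. The stretches below run 5′ to 3′ on the gene's strand, from 200 bases before the start to 30 after, with E2F words in capitals. Orc1 (chr4:108579254-108579483, plus strand) and Ccne1 (chr7:38107461-38107690, minus strand) are the called genes, with 1 and 0 such words. Mcm5 (chr8:75109309-75109538, plus strand) and Mcm6 (chr1:128359676-128359905, minus strand) are helicase subunits that recur in the liver results, with 2 and 3 words. In both, words on opposite strands overlap in 1 run of capitals. Mcm2, a helicase subunit that also recurs in the liver results, had 0 such words in its window and is not printed.
Orc1: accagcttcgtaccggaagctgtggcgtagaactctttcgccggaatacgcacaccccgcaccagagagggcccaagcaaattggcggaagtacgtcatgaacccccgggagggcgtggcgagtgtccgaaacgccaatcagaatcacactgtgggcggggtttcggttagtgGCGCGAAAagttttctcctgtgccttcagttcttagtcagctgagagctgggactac
Ccne1: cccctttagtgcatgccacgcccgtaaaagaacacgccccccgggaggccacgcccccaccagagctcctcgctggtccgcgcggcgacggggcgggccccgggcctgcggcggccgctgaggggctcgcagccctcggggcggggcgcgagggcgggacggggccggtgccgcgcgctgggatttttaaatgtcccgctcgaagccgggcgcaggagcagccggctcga
Mcm5: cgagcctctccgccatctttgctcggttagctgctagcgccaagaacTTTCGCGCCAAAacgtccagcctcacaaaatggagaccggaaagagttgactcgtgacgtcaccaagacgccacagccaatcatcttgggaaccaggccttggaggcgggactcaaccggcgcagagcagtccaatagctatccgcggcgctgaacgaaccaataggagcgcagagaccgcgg
Mcm6: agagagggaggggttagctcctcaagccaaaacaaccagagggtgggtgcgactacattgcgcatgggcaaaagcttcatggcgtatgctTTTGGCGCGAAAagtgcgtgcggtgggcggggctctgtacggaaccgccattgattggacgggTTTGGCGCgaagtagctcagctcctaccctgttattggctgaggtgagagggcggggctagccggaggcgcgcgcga

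In bone marrow the replication genes were slightly higher after bleeding, nearly all of them together, with a larger median difference from 0 h at 48 h than at 24 h. At 48 h 37 of the 38 lay above their 0 h mean, against 50.3% of all genes tested, with a median difference of 0.28 against 0.00 for all genes. Calls were few, with Orc1 and Ccne1 past the threshold and both higher, against 1.06% of all genes called higher and 0.173% called lower. Values on the 4 arrays at 48 h lay wholly above the 4 at 0 h for 26 of the 38, and wholly below for 0, against 8% and 4.69% of all genes. The first count was 16 with median scaling or quantile normalisation and 13 on the authors' processed values. At 24 h 36 of 38 lay above 0 h (44.6% of all genes) with a median of 0.14 against -0.02, and 0 were called, against 0.551% of all genes called higher and 0.463% called lower. At an unadjusted limma p under 0.05, 10 genes were higher at 24 h and 28 at 48 h, against 5.75% and 10.2% of all genes, and 0 were lower at either time, against 6.86% and 5.87%. The groups at 24 h and 0 h did not overlap for 11 of 38 genes, all higher, against 4.15% of all genes higher and 4.13% lower, and this was 3 with quantile normalisation and 7 on the authors' processed values. The 24 h and 48 h comparisons share the 0 h arrays.

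**Figure D1:**
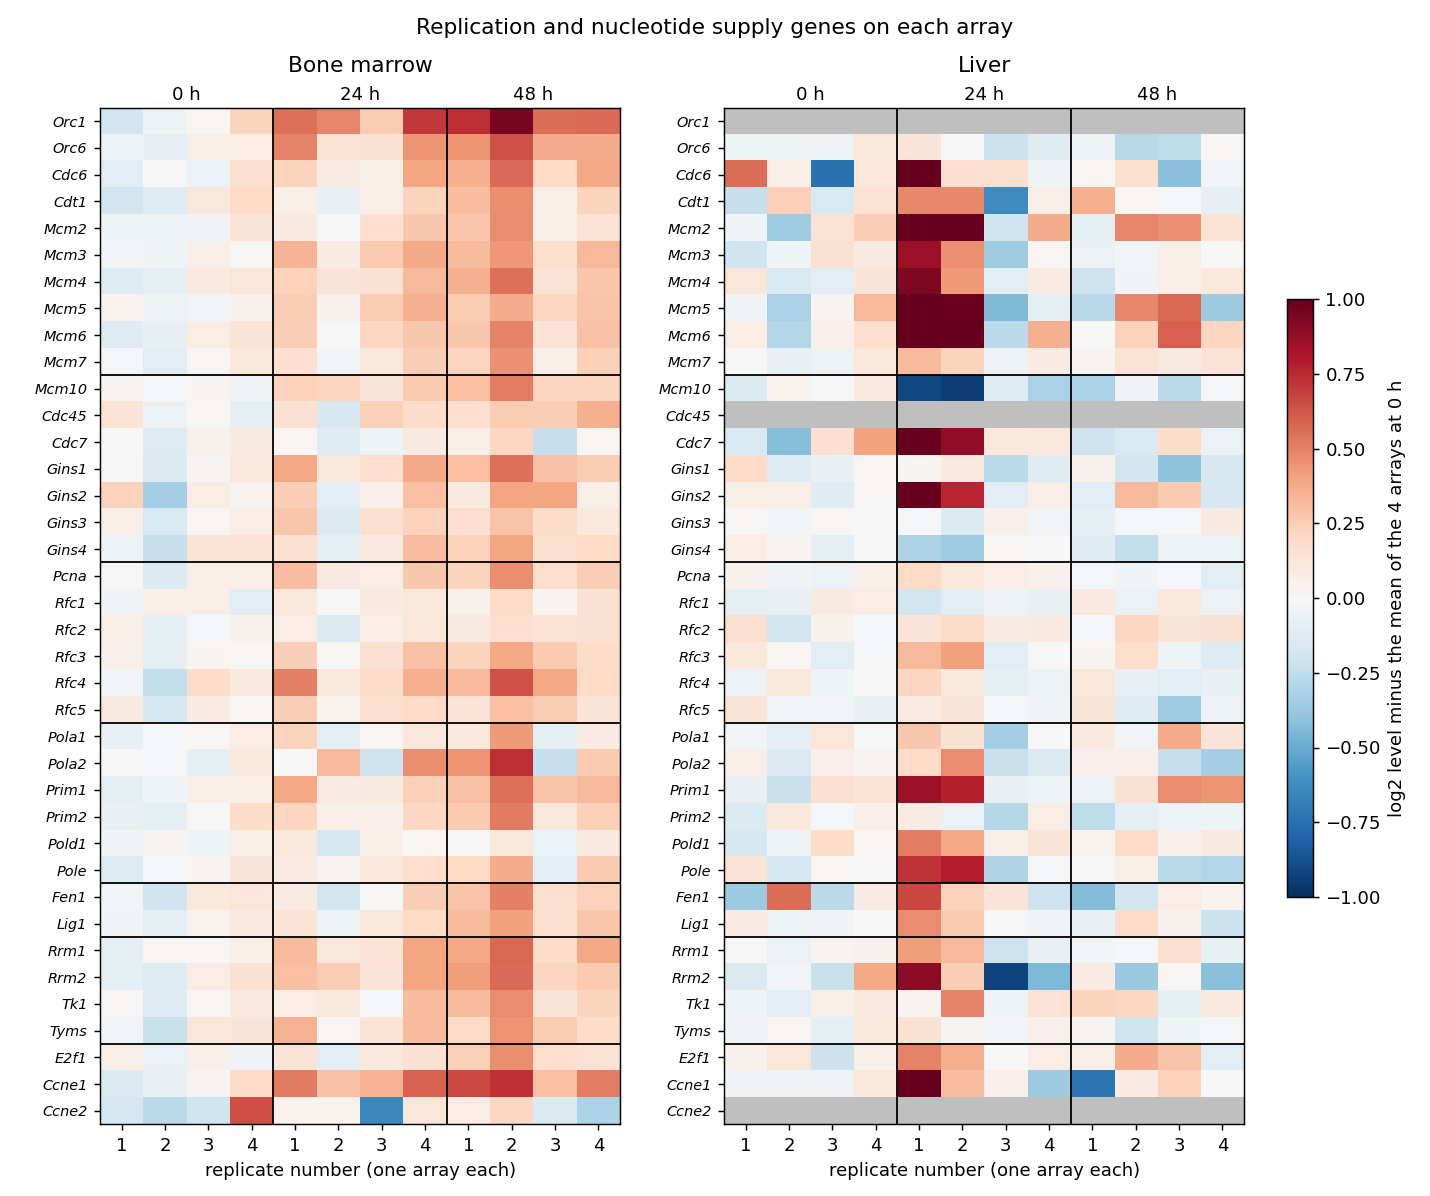
Level of each gene on each array minus its 0 h mean (log2 colour scale from -1 to 1, values beyond it drawn at the ends) in marrow and liver, with genes in rows by role, 1 array per column, and grey for genes not kept in liver. Marrow columns at 48 h are mostly red, with replicate 2 darkest for 36 of 38 genes, while in liver the red is mostly on 24 h replicates 1 and 2.

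From 24 to 48 h all 38 genes were higher on average (57.8% of all genes were), with a median of 0.11, but 0 were called, against 0.00467% of all genes called higher and 0% lower, and 0 had groups that did not overlap, against 2.8% higher and 0.902% lower. The lowest unadjusted limma p values there were 0.0416 for Lig1 and 0.0427 for Fen1, with 2 of 38 genes higher and 0 lower under 0.05, against 5.87% and 1.81% of all genes. That median was 0.05 with median scaling, where 31 of 38 were above 0, and 0.05 without 48 h replicate 2, where 34 were. Within slides it was 0.04, 0.27 and 0.04, with 23, 36 and 27 genes above 0, and the slide that gave 0.27 held 24 h replicate 2 and 48 h replicate 2. The replicates of a time differed as a set. Marrow 48 h replicate 2 was the highest of its group for 36 of 38 genes, against 32.1% of all genes. Without it the median at 48 h was 0.22 and 0 of the 38 were called.

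A marrow array stood apart for another reason. The 22 hepatocyte markers had a median level of 8.96% of their liver level on marrow 24 h replicate 2, against 0.00381% to 0.0177% on the other marrow arrays. That array was the lowest of its group for 29 of 38 replication genes, against 54.8% of all genes. Without it the groups at 24 h and 0 h did not overlap for 22 of the 38 rather than 11. A smaller group overlaps less often for any gene, and the share of all genes under that setting is not given here. The median at 24 h was then 0.20, and 0 genes were called at 24 h and 3 at 48 h.

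All 10 origin licensing genes were higher in marrow at 48 h with an unadjusted p under 0.05, by 0.24 (Mcm2) to 0.70 (Orc1), and 1 was called. Orc1 is the large ATPase subunit of the origin recognition complex. Its probe A_55_P2796543 (mm9, chromosome 4, 108287350 to 108287409) gave 0.46, 0.60, 0.68 and 0.88 on the 4 arrays at 0 h. It gave 1.21, 1.14, 0.91 and 1.36 at 24 h and 1.39, 1.60, 1.22 and 1.22 at 48 h. Every array after bleeding was above every array at 0 h. The 48 h change was 0.70 (SE 0.13, 1.63-fold, limma adjusted p 0.0246) and the 24 h difference 0.50 (SE 0.13, adjusted p 0.102). An exact two-sided permutation test gave 0.0286 for each, the smallest p that 4 arrays against 4 allow. The other kept Orc1 probes gave 0.71 and 0.51 at 48 h.

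Orc6, the smallest subunit of that complex, came closest to the threshold without passing it. Its arrays read 3.47, 3.44, 3.58 and 3.60 at 0 h and 3.98, 4.16, 3.89 and 3.89 at 48 h, with no overlap, a difference of 0.46 (SE 0.10) and a limma adjusted p of 0.06. Cdc6 and Cdt1, which load the helicase, were 0.38 and 0.27 higher at 48 h (limma adjusted p 0.113 and 0.285). The subunits of the helicase ring differed by 0.24 (Mcm2), 0.31 (Mcm3), 0.33 (Mcm4), 0.28 (Mcm5), 0.30 (Mcm6) and 0.24 (Mcm7) at 48 h. For Mcm6 the 0 h arrays read 5.49, 5.54, 5.69 and 5.75, the 24 h arrays 5.87, 5.62, 5.82 and 5.89, and the 48 h arrays 5.89, 6.12, 5.76 and 5.91. Its 48 h arrays were all above those at 0 h, the lowest of them by 0.01, and its limma adjusted p was 0.169.

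**Figure D2:**
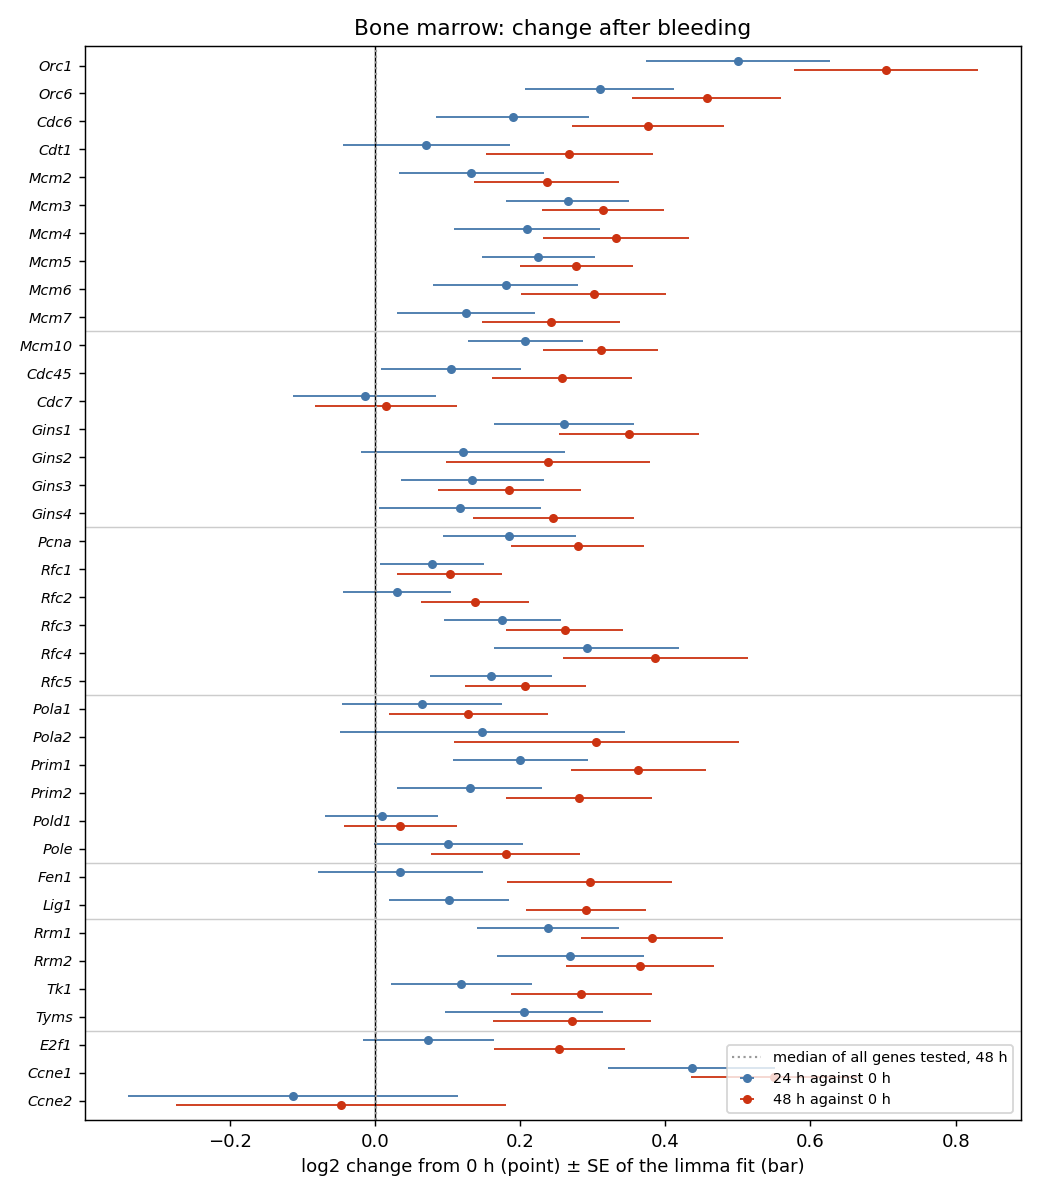
Difference of each gene from 0 h in marrow, as log2, at 24 h (blue) and 48 h (red), with bars of ± 1 SE from the limma fit on 12 arrays, genes by role, and a dotted line for the median of all genes at 48 h. At 48 h all points but Ccne2 lie right of 0, and Orc1 and Ccne1 lie farthest right.

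The origin firing factors were mixed in size. All 7 were above 0 h on average at 48 h, by 0.02 (Cdc7, the kinase that activates the helicase) to 0.35 (Gins1, a GINS subunit), and 0 were called. Gins1 read 2.15, 2.01, 2.17 and 2.25 at 0 h, 2.53, 2.26, 2.32 and 2.52 at 24 h, and 2.44, 2.69, 2.44 and 2.40 at 48 h. All of its arrays after bleeding were above all at 0 h (48 h limma adjusted p 0.11). Gins3, another subunit, read 4.14, 3.93, 4.09 and 4.15 at 0 h, 4.36, 3.94, 4.24 and 4.31 at 24 h, and 4.24, 4.36, 4.26 and 4.18 at 48 h. Its 48 h difference was 0.19 (SE 0.10, limma adjusted p 0.385), and its 24 h arrays overlapped those at 0 h. Mcm10 was 0.31 higher (SE 0.08, limma adjusted p 0.0876), again with no overlap. Cdc7 showed a level of 2.11 to 2.33 at 0 h and 2.01 to 2.45 at 48 h, so its groups overlapped over their whole range.

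Among the clamp and clamp loader genes, all 6 were above 0 h on average at 48 h, 5 of them with no overlap, and 0 were called. Pcna, the sliding clamp, read 5.86, 5.72, 5.93 and 5.93 at 0 h, 6.16, 5.95, 5.94 and 6.13 at 24 h, and 6.08, 6.32, 6.04 and 6.10 at 48 h. Its groups did not overlap at either time, and the differences were 0.19 (SE 0.09) and 0.28 (SE 0.09, limma adjusted p 0.165). Rfc4, a subunit of the loader that opens Pcna, read 3.56, 3.34, 3.78 and 3.68 at 0 h, 4.09, 3.71, 3.77 and 3.95 at 24 h, and 3.91, 4.23, 3.98 and 3.79 at 48 h. Its 48 h difference was 0.39 (SE 0.13, limma adjusted p 0.169), and its 24 h arrays overlapped those at 0 h. The large subunit Rfc1 showed the smallest difference of the group, 0.10 (SE 0.07), and its groups overlapped. The 3 kept Rfc5 probes differed in sign at both times, and none was called.

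The polymerases and primase showed the least separation. Of the 6 genes, 1 had groups that did not overlap at 48 h, and 0 were called. This was Prim1, the catalytic primase subunit, which read 3.28, 3.32, 3.43 and 3.43 at 0 h, 3.75, 3.45, 3.45 and 3.61 at 24 h, and 3.66, 3.91, 3.65 and 3.69 at 48 h. Its 48 h difference was 0.36 (SE 0.09, limma adjusted p 0.0897). Pold1, the catalytic subunit of polymerase delta, stayed within 2.99 to 3.26 on all 12 arrays, with differences of 0.01 at 24 h and 0.04 at 48 h (SE 0.08 each). Both Okazaki fragment genes lay wholly above 0 h at 48 h. Fen1, the flap nuclease, read 4.72, 4.54, 4.85 and 4.86 at 0 h, 4.82, 4.56, 4.74 and 4.99 at 24 h, and 5.03, 5.25, 4.91 and 4.98 at 48 h, so it differed by 0.04 (SE 0.11) at 24 h and 0.30 (SE 0.11, limma adjusted p 0.233) at 48 h. Its sign at 24 h turned with quantile normalisation and without marrow 0 h replicate 2 or 24 h replicate 4.

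All 4 nucleotide supply enzymes lay wholly above their 0 h values at 48 h, and 0 were called. Rrm2, the S-phase subunit of ribonucleotide reductase, read 5.40, 5.37, 5.57 and 5.65 at 0 h, 5.80, 5.75, 5.63 and 5.89 at 24 h, and 5.91, 6.07, 5.71 and 5.76 at 48 h. Its 48 h difference was 0.37 (SE 0.10, limma adjusted p 0.112). Rrm1, the large subunit of that enzyme, read 3.77, 3.87, 3.87 and 3.93 at 0 h, 4.18, 3.97, 4.00 and 4.25 at 24 h, and 4.25, 4.44, 4.04 and 4.24 at 48 h. It was higher on all arrays after bleeding than on any at 0 h, by 0.38 at 48 h (SE 0.10, limma adjusted p 0.0888). Tk1 and Tyms, which make thymidine nucleotides, were 0.28 and 0.27 higher.

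The G1/S control genes held the other call. Ccne1, the cyclin E that activates Cdk2, was measured by probe A_51_P408946 (mm9, chromosome 7, 38882937 to 38882960). It read 3.36, 3.43, 3.53 and 3.70 at 0 h, 4.02, 3.79, 3.85 and 4.10 at 24 h, and 4.16, 4.23, 3.80 and 4.02 at 48 h. No array after bleeding overlapped those at 0 h. The 48 h change was 0.55 (SE 0.12, 1.46-fold, limma adjusted p 0.0473) and the 24 h difference 0.44 (SE 0.12, adjusted p 0.116), with an exact permutation p of 0.0286 for each. E2f1, the transcription factor, was 0.25 higher at 48 h (SE 0.09, limma adjusted p 0.199) with no overlap. Ccne2, the other cyclin E gene, did not follow. It read -3.88, -3.97, -3.90 and -3.05 at 0 h and -3.63, -3.50, -3.85 and -4.01 at 48 h, a difference of -0.05 (SE 0.23).

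**Figure D3:**
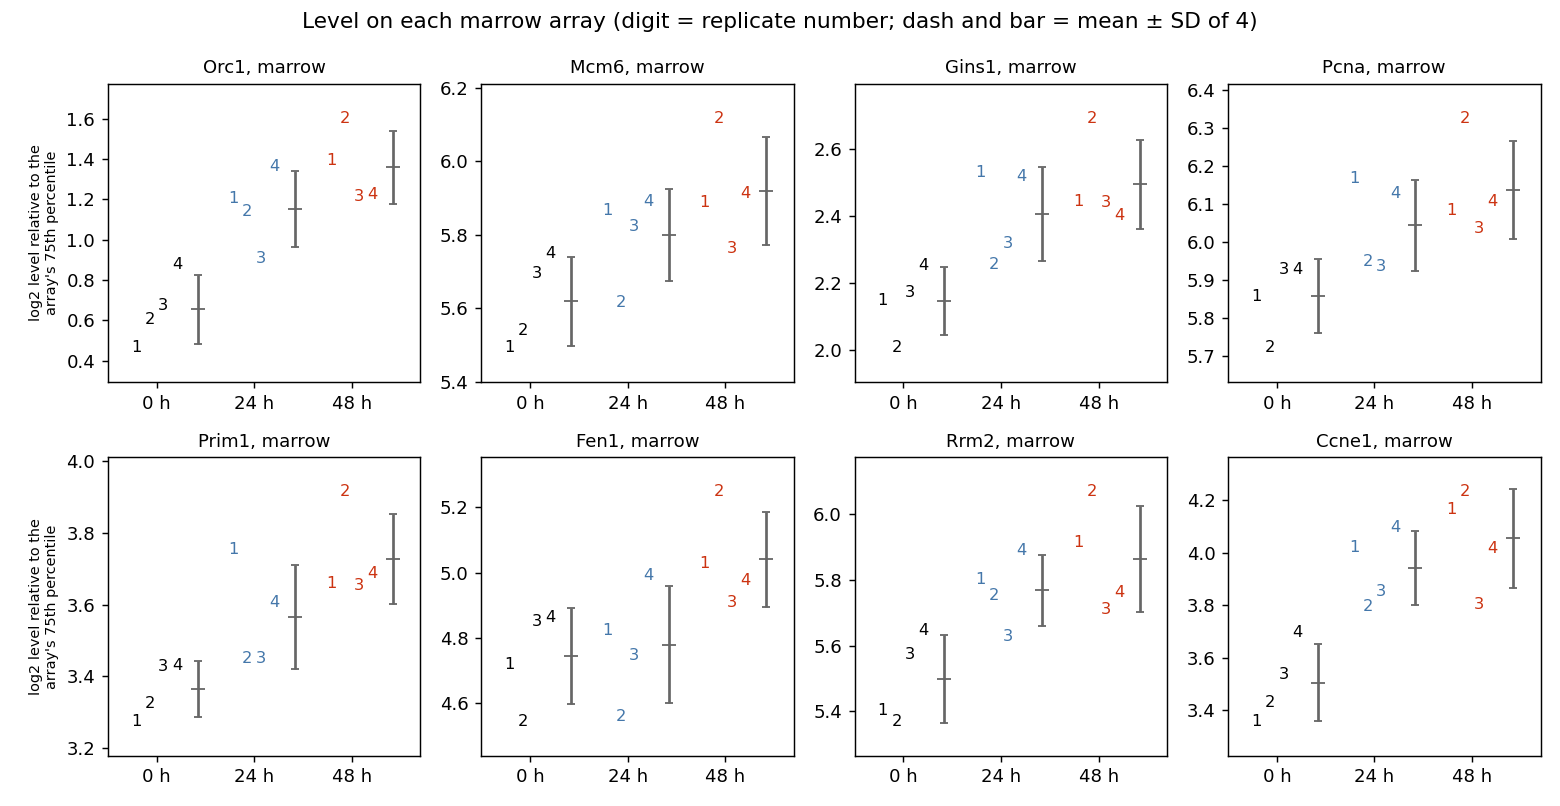
Level (log2 scale, as distance from the 75th percentile) of 8 genes on each marrow array at 0, 24 and 48 h, with each digit the replicate number and a dash with a bar for the mean ± SD of 4 arrays; the vertical axes differ between panels and do not start at 0. For Orc1 and Ccne1 every 24 h and 48 h array lies above every 0 h array, and replicate 2 is the highest at 48 h in all 8 panels.

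Both calls sat near the threshold. Over 24 alternative analyses the limma adjusted p of Orc1 at 48 h ran from 0.0108 to 0.0942 and was lost in 8, and that of Ccne1 ran from 0.0125 to 0.164 and was lost in 16, with the direction kept in all. No member was called at 48 h without marrow 0 h replicate 1, 2 or 3, or without 48 h replicate 1 or 2, and 10 were called when arrays were weighted by their quality. The arrays came on 3 slides that each held several groups. Within a slide the median of the 38 genes at 48 h against 0 h was 0.34, 0.25 and 0.14, with 38, 37 and 36 genes above 0 h. At 24 h it was 0.27, -0.01 and 0.11, with the slide that gave -0.01 holding marrow 24 h replicate 2. With the slide as a block 0 of the 38 were called at 48 h.

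The other genes of these pathways were counted from lists. Of 42 other replication factors, 40 were above 0 h at 48 h with a median of 0.25, and 1 was called, Recql4, a helicase needed for origin firing (0.51, SE 0.10, limma adjusted p 0.0347). Of 29 other nucleotide supply genes, 2 were called at 24 h and 5 at 48 h, all higher. Called at both times were Mthfd2 (1.09 at 24 h and 0.88 at 48 h, SE 0.11, limma adjusted p 0.000666 and 0.00257) and Shmt2 (0.83 and 0.88, SE 0.10, adjusted p 0.00338 and 0.00223). Both are mitochondrial enzymes of folate-bound carbon units. The folate enzyme Mthfd1 (0.56) and Ppat, the first step of purine synthesis (0.42), were past the threshold at 48 h and not at 24 h. Their 24 h differences were 0.50 and 0.36 (limma adjusted p 0.0734 and 0.062). Of 27 other G1/S regulators 0 were called, with a median of 0.11 at 48 h. Of 20 mitosis genes 0 were called, all 20 were above 0 h at 48 h, and the median was 0.19. Among them the proliferation marker Mki67 was 0.23 higher (SE 0.11), Top2a 0.18 (SE 0.09) and the mitotic cyclin Ccnb1 0.32 (SE 0.11, limma adjusted p 0.186).

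Markers of some marrow cell types differed at the same times. At 48 h all 15 erythroblast markers were above 0 h, with a median of 0.52 and 2 called. At 24 h 11 of 15 were, with a median of 0.19 and 1 called (limma adjusted p 0.0143). Their summed level was 333.9 to 458.7 times the 75th percentile at 0 h, 327.1 to 443.2 at 24 h and 419.4 to 573.6 at 48 h. Per array, their median displacement at 48 h was 0.61, 0.71, 0.17 and 0.53 for replicates 1 to 4, beside 0.27, 0.47, 0.17 and 0.23 for the replication genes. At 24 h it ran from -0.001 to 0.41 for these markers and from 0.03 to 0.27 for the replication genes. At 0 h it ran from -0.18 to 0.30 and from -0.09 to 0.09. All 11 B lymphocyte markers tested were below 0 h at both times (median -0.65 and -0.43), and their summed level ran from 81.1 to 134 at 0 h, 58.1 to 90.4 at 24 h and 57.2 to 112.1 at 48 h. All 6 T cell markers were below as well, with a median of -0.58 at 24 h and -0.37 at 48 h and 2 called lower at 24 h. Of 7 monocyte and macrophage markers 6 were below 0 h at 24 h and 7 at 48 h (median -0.21 and -0.20), 3 of them with no overlap at each time and 0 called. Their summed level ran from 238 to 301.5 at 0 h, 202.7 to 293.5 at 24 h and 183.5 to 275.9 at 48 h. The 3 Kupffer cell (liver macrophage) markers tested in marrow had a summed level of 9.88 to 13.1 at 0 h. It was 6.21 to 8.70 at 24 h and 5.63 to 9.12 at 48 h. Their median displacement per array ran from -0.41 to 0.33, -0.80 to -0.41 and -1.03 to 0.26. The lists of neutrophils, neutrophil precursors, stem and progenitor cells and megakaryocytes overlapped their 0 h range at both times. The median displacement per array at 0, 24 and 48 h ran from -0.25 to 0.22, -0.26 to 0.31 and -0.40 to 0.06 for neutrophils. For neutrophil precursors it ran from -0.39 to 0.53, -0.40 to 0.30 and -0.75 to 0.29. Stem and progenitor cells had -0.10 to 0.08, -0.38 to 0.07 and -0.11 to 0.10. Megakaryocytes had -0.09 to 0.23, -0.23 to 0.19 and -0.22 to 0.57. The part of cell composition in the replication result was not tested.

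**Figure D4:**
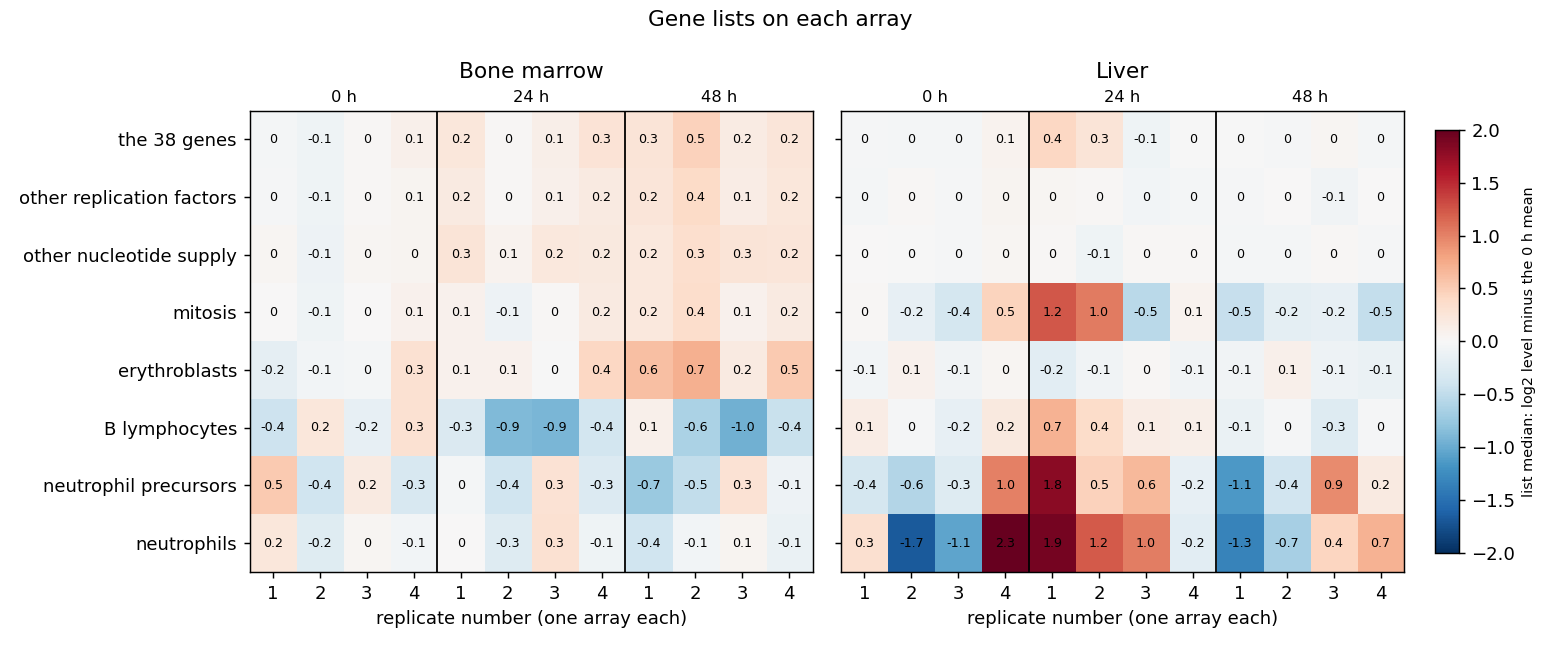
Median over each gene list of the log2 level minus the 0 h mean, on each marrow and liver array, with printed values rounded to 1 decimal; lists in rows, 1 array per column. In marrow the rows of the 38 genes and other replication factors are highest on 48 h replicate 2, and in liver the 38 genes and the mitosis list are highest on 24 h replicates 1 and 2.

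In liver no replication gene was called at any time, and the arrays of 24 h differed among themselves. At 24 h 27 of 35 genes were above 0 h (44.6% of all genes were), with a median of 0.14 against -0.02, which was 0.05 without 24 h replicate 1. At 48 h 15 of 35 were, against 44.1%, with a median of -0.01. The calls numbered 0 of 35 at 24 h, at 48 h and between them, as over all 19648 genes, where limma called 0% in either direction. At an unadjusted limma p under 0.05, 2 genes were higher and 1 lower at 24 h (4.95% and 5.98% of all genes) and 0 at 48 h (2.56% and 3.88%). No gene had groups that did not overlap against 0 h, against 2.3% higher and 3.23% lower among all genes at 24 h and 1.77% and 2.44% at 48 h. From 24 to 48 h 5 of 35 were higher on average (50.1% of all genes), with a median of -0.12, and under an unadjusted p of 0.05 there were 1 higher (Mcm10) and 2 lower (Cdc7 and Pcna), against 3.67% and 3.95%. Groups did not overlap for 0 genes higher and 1 lower, against 1.73% and 1.93%. Cdc7 was also 1 of the 2 genes higher at 24 h, and it was above background on 3, 4 and 2 liver arrays at 0, 24 and 48 h, so it was kept only through the 24 h group, where it was highest, and its place in these counts supports nothing. The gene with no overlap was Pcna, lower at 48 h (difference -0.15, SE 0.06, limma adjusted p 0.595).

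The liver difference at 24 h lay on 2 arrays. Replicate 1 lay above all 4 arrays at 0 h for 26 of 35 genes and replicate 2 for 23, against 20.9% of all genes on each, while replicates 3 and 4 did so for 2 and 4 (21.1% and 16.4%). Replicates 1 and 2 were the highest pair of the 4 for 28 of 35 genes, against 20.3% of all genes. The helicase genes showed it most plainly, and Mcm2, Mcm5 and Mcm6 were picked after their values were seen. Mcm6 read 0.75, 0.39, 0.73 and 0.84 at 0 h, 2.07, 1.82, 0.41 and 1.03 at 24 h, and 0.67, 0.90, 1.28 and 0.89 at 48 h. Mcm2 read -2.58, -2.90, -2.40 and -2.30 at 0 h, -1.24, -1.54, -2.75 and -2.17 at 24 h, and -2.63, -2.06, -2.09 and -2.41 at 48 h. Mcm5 read -2.0, -2.29, -1.94 and -1.64 at 0 h, -0.55, -0.98, -2.40 and -2.06 at 24 h, and -2.24, -1.48, -1.39 and -2.33 at 48 h. In all 3 the first pair of 24 h arrays was the highest of the 12, and the other pair lay near or inside the 0 h range. The 24 h difference was 0.66 (SE 0.30) for Mcm6 and 0.62 (SE 0.29) for Mcm2, with limma adjusted p values of 0.459 and 0.458.

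**Figure D5:**
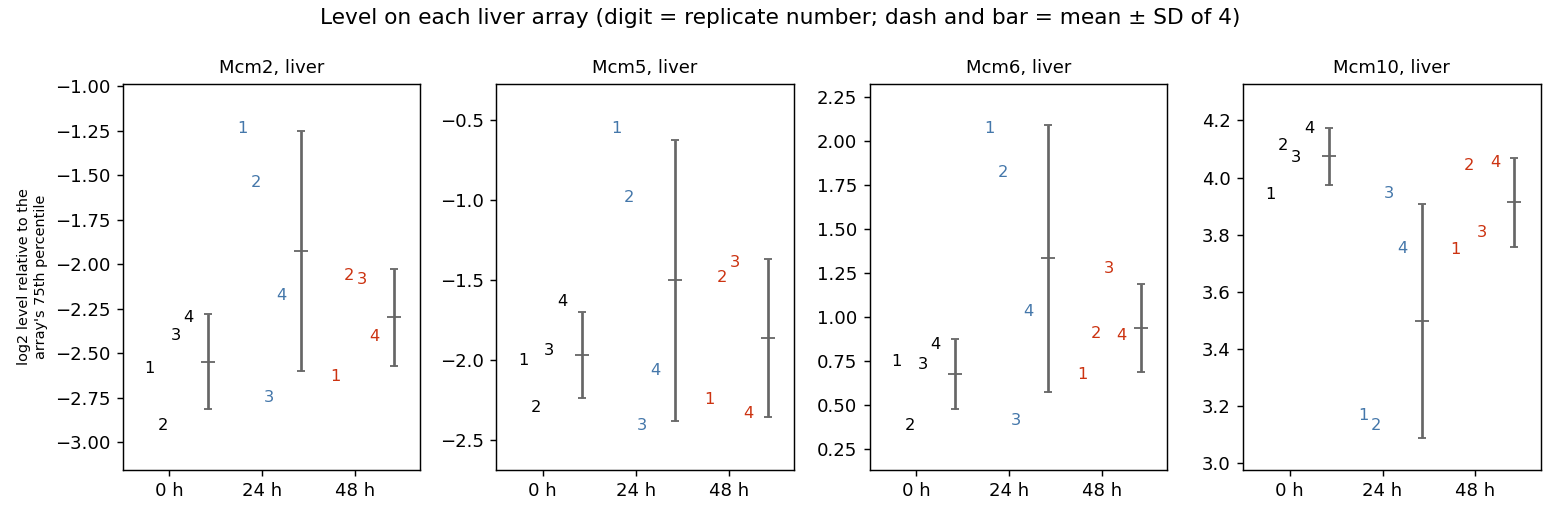
Level (log2 scale, as distance from the 75th percentile) of Mcm2, Mcm5, Mcm6 and Mcm10 on each liver array at 0, 24 and 48 h, with each digit the replicate number and a dash with a bar for the mean ± SD of 4 arrays; the vertical axes differ between panels and do not start at 0. At 24 h replicates 1 and 2 are the highest arrays for Mcm2, Mcm5 and Mcm6 and the lowest for Mcm10.

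Other genes followed the same arrays. The median displacement of the 11 mitosis genes kept in liver was 1.24 and 1.03 on 24 h replicates 1 and 2 and -0.53 and 0.07 on replicates 3 and 4, and it was 0.45 on 0 h replicate 4. The other replication factors, of which 36 were kept, did not show it, with 0.05 and 0.03 on replicates 1 and 2. The neutrophil precursor markers stood at 1.81, 0.46, 0.65 and -0.17 on 24 h replicates 1 to 4, and the neutrophil markers at 1.91, 1.22, 1.02 and -0.21. Neutrophil markers were higher still on 0 h replicate 4, at 2.33, where the median of the replication genes was 0.07. Erythroblast markers were at -0.21, -0.06, 0.02 and -0.06 on the 24 h arrays, with 8 of 15 kept in liver and Rhag and Sptb above background on 0 liver arrays. B lymphocyte markers, with 9 of 12 kept, ran from 0.11 to 0.70 on the 24 h arrays, against -0.16 to 0.19 at 0 h. Megakaryocyte markers, with 3 of 5 kept, ran from 0.3 to 1.3, against -1.1 to 0.9 at 0 h. The lists of monocytes and macrophages, Kupffer cells, T cells and stem and progenitor cells also overlapped their 0 h range at 24 h. The summed level of the neutrophil list ran from 2.01 to 31.7 at 0 h, 5.04 to 23.6 at 24 h and 2.0 to 11.5 at 48 h. The part of blood or marrow cells in the liver values was not tested. Replicates 1 and 2 were on slides 1 and 2, and replicates 3 and 4 were both on slide 3, so among the 24 h arrays high and low cannot be told apart from slide. Within slides 1 to 3 the median of the 35 genes at 24 h was 0.41, 0.31 and -0.14.

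Mcm10 went the other way in liver. It read 3.94, 4.11, 4.07 and 4.17 at 0 h, 3.17, 3.13, 3.94 and 3.75 at 24 h, and 3.75, 4.04, 3.81 and 4.05 at 48 h. The arrays on which the helicase subunits Mcm2, Mcm5 and Mcm6 were highest were the lowest for this firing factor. Its 24 h difference was -0.58 (SE 0.17, unadjusted limma p 0.00612, adjusted p 0.345). Its other kept probe, on another stretch of the gene (mm9, chromosome 2, 4920226 to 4920285, against 4911845 to 4911904), differed by -1.36 (SE 0.46). On the probe used, Gins4 was below its 0 h range on replicates 1 and 2, at 1.13 and 1.08 against 1.34 to 1.51. The kept Gins4 probes differed in sign at 24 h, however. Rfc1 was also below its 0 h range on these 2 arrays, at 1.14 and 1.21 against 1.23 to 1.41.

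The tissues were then compared directly, by testing the marrow change minus the liver change on all 24 arrays. At 48 h the marrow change was the larger for 34 of 38 genes (54% of all genes), with a median of 0.31, and 0 genes were called, against 0.382% of all genes called higher and 0.0307% lower. At an unadjusted limma p under 0.05, 10 of 38 were higher and 0 lower, against 7.2% and 3.81% of all genes. Orc6 came nearest, at 0.60 (SE 0.14, limma adjusted p 0.0601), followed by Gins1 at 0.53 (SE 0.15, adjusted p 0.151) and Pcna at 0.32 (SE 0.10, adjusted p 0.21). At 24 h the sign was split, with 20 of 38 above 0 (49.9% of all genes), a median of 0.02, and 0 called, against 0.228% higher and 0.136% lower. At an unadjusted p under 0.05, 4 were higher and 0 lower there, against 5.96% and 5.43%, and Mcm10 came nearest to a call at 0.78 (SE 0.19, limma adjusted p 0.0821). Orc1, Cdc45 and Ccne2 enter these counts with liver values that are not well above background. Among the other nucleotide supply genes Shmt2 and Mthfd1 were called at both times, by 0.95 and 0.70 at 48 h.

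Before bleeding, the replication genes were far higher in marrow than in liver. Limma called 36 of 38 higher in marrow at 0 h and 1 lower, against 39.6% and 40.6% of all genes, with a median difference of 3.73 against -0.03. Each array is scaled to its own 75th percentile, so these differences are relative to it. Where all 4 arrays of both tissues were above background, the higher genes ran from 0.97 for Gins3 to 6.05 for Mcm5. Cdc7 differed by 6.33, with 3 of 4 liver arrays above background. Orc1 and Cdc45 were above background on 0 of 4 liver arrays, and were at least 35.6-fold and at least 21.9-fold higher in marrow (the marrow mean against a floor on each liver array, which is the dimmest signal marked as well above background, or the value of the probe where that was brighter). The roles differed in size. The licensing genes had a median of 4.72, the Okazaki fragment genes 4.20, the nucleotide enzymes 3.72 and the polymerases and primase 3.64, while the clamp and its loader had 1.66 and the firing factors 2.50. Within the clamp group Rfc1, Rfc2, Rfc3 and Rfc5 differed by 1.35 to 1.68 and Pcna and Rfc4 by 3.39 and 3.53.

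A pair of genes stood outside this pattern. Ccne2 read -3.97 to -3.05 in marrow and -6.95 to -1.34 in liver at 0 h, was above background on 1 of 4 liver arrays, and was not called (limma adjusted p 0.103). Mcm10 was lower in marrow, at 2.84 to 2.90 on the 4 arrays against 3.94 to 4.17 in liver, a difference of -1.20 (SE 0.14, limma adjusted p 7.4e-08). Its other kept probe lay the other way, with a mean of 0.00 in marrow and -1.08 in liver, so the order of the tissues for this gene depended on the probe.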

How the data were processed

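RNA of 12 liver and 12 marrow samples was hybridised to single-colour (Cy3) Agilent arrays, with 4 arrays per tissue and time. Per the file headers, the deposited intensity of each spot was background-subtracted and spatially detrended by Agilent Feature Extraction 10.10.1.1, with probe positions on mm9. A deposited table of log2 values, for which the submitters' processing notes name limma, served as an alternative; its normalisation between arrays is not given in the sources used here. The 75th percentile of intensity was 361.2 to 473.1 on liver arrays and 715 to 954.7 on marrow arrays, 28078 to 35771 of 59305 spots were well above background, and 0 were saturated. The number of arrays limits the precision.

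Each array was scaled as log2 of the processed intensity minus its 75th percentile, without control spots and outlier flags. Spots of a probe were averaged. Genes were represented by their brightest kept probe. Limma 3.58.1 (R 4.3.3) fitted the 12 arrays of a tissue together, over 21399 genes in marrow and 19648 in liver, and all 24 arrays over 22781 genes for comparisons between tissues. The script was tested on simulated data. P-values are two-sided and measure the spread between these samples. Single genes were also compared by an exact permutation test. Values on every array are given for genes called in a tissue and, in each role group, for the gene with the largest 48 h difference in marrow and the brightest gene, and for others where said or where they came near the threshold, chosen after their values were seen. The genes, their roles and all lists were chosen with earlier results of these data known. Alternatives were other scalings, background correction, filters, probe averaging, blocks for slide and replicate number, variance models and leaving out each array. Deviations of same-numbered samples within a tissue were correlated by r from -0.27 to 0.17. They exceeded 0.1 for 3 of 12 pairs in liver and 5 of 12 in marrow, against 4 and 8 of 36 other pairs. Across tissues 6 of 12 same-numbered pairs, which also shared slides, exceeded 0.1, against 0 of 36 others, some of which shared slides too. The labels give no pairs, so the main fits used none and took the 24 arrays as independent. Some single-gene results are not reported here.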

Additional observations from a re-analysis of the deposited data

Results flagged for a closer look

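Among the 4 arrays of a group, 1 array stood far from the other 3 in 10 of 219 groups of gene and time examined, by Dixon's criterion at 95%, which chance alone meets in about 1 in 20 groups. In marrow at 48 h replicate 2 stood above the rest for Gins1 (2.69 against 2.40 to 2.44) and for Prim1 (3.91 against 3.65 to 3.69). This was the array on which 36 of the 38 genes were highest.

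Marrow 24 h replicate 2, the array that carried hepatocyte transcripts, stood below the rest for the clamp loader subunit Rfc1 (2.66 against 2.76 to 2.78) and for E2f1 (1.23 against 1.46 to 1.49). Marrow 0 h replicate 4 stood above the rest for Mcm2 (3.22 against 3.04 to 3.06) and for Ccne2 (-3.05 against -3.97 to -3.88). Ccne2 also had a low array at 24 h, replicate 3 (-4.34 against -3.67 to -3.58).

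In liver at 0 h replicate 4 stood above the rest for Orc6 (0.77 against 0.61 to 0.62) and for Ccne1, at -2.31 with the other 3 all at -2.46. Replicate 2 stood below the rest for Gins3 (3.08 against 3.11 to 3.12).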

How the results depend on the processing

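The number of the 38 genes called in marrow at 48 h, 2 as reported, was 1 with median scaling, quantile normalisation, the mean of a gene's probes or only the 2 groups compared, 0 with no filter on dim probes or with the slide as a block, 10 with array weights, and 0 to 3 when each array was left out. At 24 h it was 1 with array weights and 0 to 0 without each array. With the replicate number as a block, 0 were called at 48 h and 1 for the 48 h difference between tissues, and over all genes 100 rather than 264 were called in marrow at 48 h and 167 rather than 94 for that difference. Same-numbered liver and marrow arrays of a time had deviations correlated by 0.01 to 0.15 (6 of 12 above 0.1), other numbers by -0.12 to 0.08. Every same-numbered pair also shared a slide, at consecutive positions such as 1_1 and 1_2. Some pairs of other numbers shared a slide too, such as liver 0 h replicate 1 and marrow 0 h replicate 2. None of those other pairs exceeded 0.1. Pairing of animals across tissues, which the labels do not give, therefore cannot be told apart from position on the slide. For the difference between tissues, 0 as reported, the 24 h count was 1 with normexp or the authors' values and 0 to 1 without each array, and the 48 h count was 2 with normexp and 1 with probes above background on all arrays, trended variance or array weights. Over all genes the 48 h marrow count was 116 with the slide block, 126 with median scaling, 391 with trended variance and 741 with array weights. Genes with no overlap against 0 h were counted under other settings after the data were seen. At 24 h they numbered 3 (quantile), 7 (authors' values) and 11 to 22 without each array. At 48 h they numbered 16 (median scaling), 16 (quantile), 13 (authors' values) and 26 to 33 without each array. Leaving out an array of a compared group makes overlap less likely for any gene. The median of marrow against liver at 0 h, 3.73, was 3.97 with quantile normalisation, 3.45 with normexp and 4.46 on the authors' values. Fen1 in marrow at 24 h turned to -0.039 with quantile normalisation, -0.031 without 0 h replicate 2 and -0.035 without 24 h replicate 4, and ran from -0.035 to 0.11 without each array. The cause of these shifts was not tested. Without each array the median of the genes ran from 0.10 to 0.20 at 24 h and from 0.22 to 0.32 at 48 h in marrow, and liver calls stayed at 0 in all 24 alternatives. Comparing only 2 groups gave no value for the differences between tissues. Low signal limits the liver values of Orc1, Cdc45, Cdc7 and Ccne2.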

Other observations

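Among the folate enzymes named above as called in marrow, Shmt2 and Mthfd1 were lower in marrow than in liver at rest, and Mthfd2 was not. Before bleeding Shmt2 was lower in marrow than in liver by a log2 difference of -2.07 (SE 0.09, limma adjusted p 1.14e-14), and Mthfd1 by -2.19 (SE 0.10, adjusted p 2.36e-14), with all 4 marrow arrays below all 4 liver arrays for both. Mthfd2 read higher in marrow, with means of 0.76 and -3.01 on the probe used for marrow. In liver the differences of Shmt2 and Mthfd1 after bleeding were -0.07 and -0.17 at 24 h and -0.07 and -0.13 at 48 h, none of them called.

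Recql4, the origin firing helicase called in marrow, read lower in liver at 24 h than at 48 h on all 4 arrays, with means of -2.24 and -1.75 and a difference of 0.49 (SE 0.14, limma adjusted p 0.507). It was chosen for the liver after its values were seen.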
